A study of Mus musculus with 18 samples.

Results

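Medium spiny neurons are the projection neurons of the striatum, and 9 genes that mark them are described here across every RNA preparation of the series. The genes were chosen by name, with earlier results of these data known. Among them are the dopamine receptors Drd1 and Drd2, the adenosine receptor Adora2a and the neuropeptide precursors Penk, Tac1 and Pdyn. The others are the signalling genes Ppp1r1b, Rgs9 and Pde10a. The probe annotation gave a probe set for 8 of the 9, and none for Adora2a, whose level is not analysed here. All 15 probe sets of the 8 genes were read, of 45037 on the array, and 13 of them, covering all 8 genes, passed the filter on low values. Where a gene had several probe sets, the one with the highest mean over the arrays stands for the gene and the others are given beside it.

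RNA came from cortex and striatum dissected as 1 piece, from 3 mice carrying the TgCPEB4∆4 transgene and 3 control mice labelled CTRL, all 6 weeks old. No treatment is labelled for either genotype, and the sources used here do not name the promoter that drives the transgene. Each mouse gave 3 arrays: total RNA, RNA released from a poly(U) column at 25% formamide, which was enriched for short poly(A) tails, and RNA released at 90% formamide, which was enriched for long tails. The difference between the long-tail and the short-tail log2 value of a mouse is called its tail ratio, and a value above 0 means a larger share of the long-tail than of the short-tail fraction.

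The striatum sends its output through 2 classes of medium spiny neuron. Neurons of the direct pathway carry the Drd1 receptor, which raises cyclic AMP, and make substance P (from Tac1) and dynorphin (from Pdyn). Neurons of the indirect pathway carry Drd2, which lowers cyclic AMP, and Adora2a, and make enkephalin (from Penk). Both classes share Ppp1r1b (DARPP-32, an inhibitor of protein phosphatase 1 when phosphorylated by protein kinase A), Rgs9 (which shortens G protein signalling) and Pde10a (which breaks down cyclic nucleotides). CPEB4, the protein that the transgene encodes in an altered form, belongs to a family that binds elements in 3′ untranslated regions and alters poly(A) tail length.

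The deposited values were log2 expression, and the median of an array lay between 6.42 and 6.59. The brightest nonspecific control probe set, taken as background, stood at 7.07 to 7.52 on total-RNA arrays, at 7.30 in the long-tail fraction of CTRL mouse 1, and at 5.43 to 6.29 on the other fraction arrays. In total RNA, 6 of the 8 genes exceeded it on all 6 arrays. Drd2 exceeded it on 0 of 3 TgCPEB4∆4 arrays and on 1 of 3 CTRL arrays, and Pdyn on none, so total-RNA values of both lay at or near background. Of 17 measured genes on a second list of medium spiny neuron genes, 16 exceeded it on all 6 total-RNA arrays, as did 4 of 7 measured markers of cortical excitatory neurons, so genes of both dissected regions were detected.

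The genes spread over nearly the whole range of tail ratios found in this tissue. Rgs9 stood at the long-tail end and Tac1 at the short-tail end, and these genes were the highest and the lowest of the 8 in 6 of 6 mice. In TgCPEB4∆4 mice 3 of 8 genes passed the test of the tail ratio against 0, Rgs9 toward long tails and Tac1 and Drd2 toward short tails (limma, Benjamini-Hochberg adjusted p under 0.05). Of all probe sets tested, 31.8% passed in these mice, 12.7% toward long and 19.1% toward short tails. In CTRL mice 5 of 8 genes passed, Rgs9 toward long tails and Tac1, Penk, Drd1 and Drd2 toward short tails, and 63% of all probe sets passed, 27.6% toward long and 35.4% toward short tails. The share of these genes that passed was thus near that of the whole array in both genotypes. In sign, all 3 TgCPEB4∆4 mice lay below 0 for 5 of 8 genes (45.3% of all probe sets) and above 0 for 2 (29.8%). All 3 CTRL mice lay below 0 for 4 of 8 genes (42.7% of all probe sets) and above 0 for 1 (36.2%).

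**Figure D1:**
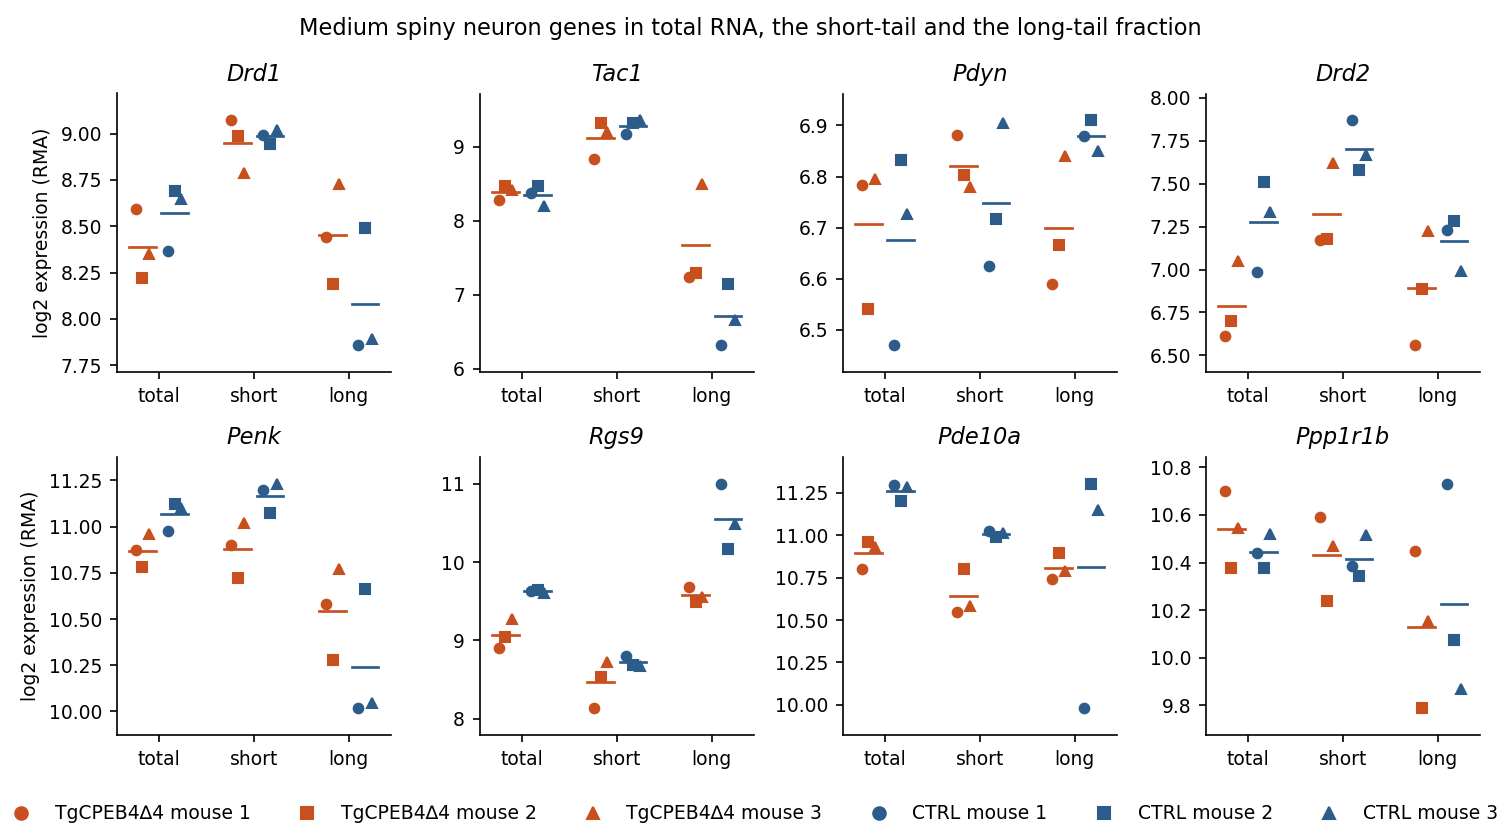
Log2 expression (RMA) of the 8 genes in total RNA and in both tail fractions, each panel with its own scale. Each symbol is 1 mouse, TgCPEB4∆4 in orange left of CTRL in blue, and lines are group means; Tac1 drops and Rgs9 climbs between the short-tail and the long-tail fraction in all 6 mice.

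Drd1 (chr13:54051183-54055658, GRCm38.p6), the receptor of the direct pathway, passed toward short tails in CTRL mice. Its tail ratio was -0.63, -0.80 and -0.06 in TgCPEB4∆4 mice, against -1.13, -0.46 and -1.13 in CTRL mice. All 6 values were below 0, and the genotypes overlapped. The mean was -0.50 ± 0.38 in TgCPEB4∆4 mice (SD, n = 3), which did not pass (adjusted p = 0.078, limma), and -0.90 ± 0.39 in CTRL mice, which did (adjusted p = 0.0046, limma). Drd2 (chr9:49340360-49408177), the receptor of the indirect pathway, behaved alike in sign. Its tail ratio was -0.61, -0.29 and -0.40 in TgCPEB4∆4 mice, against -0.64, -0.30 and -0.67 in CTRL mice. The genotypes overlapped, and both means passed, at -0.43 ± 0.16 in TgCPEB4∆4 mice (adjusted p = 0.042, limma) and -0.54 ± 0.21 in CTRL mice (adjusted p = 0.0095, limma). The median gene also lay below 0, at -0.17 in TgCPEB4∆4 and -0.18 in CTRL mice. Of 11974 genes, 27.5% in TgCPEB4∆4 and 34.2% in CTRL mice had a lower mean ratio than Drd2. For Drd1 these shares were 22.9% and 21.2%. The TgCPEB4∆4 call for Drd2 was lost in 8 of 14 alternative settings, and the CTRL call after median centring (-0.34, adjusted p = 0.055, limma) and without CTRL mouse 3 (-0.47, adjusted p = 0.061, limma). Adora2a (chr10:75316877-75334792), which opposes Drd2 in the same neurons, had no probe set in the annotation used.

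Tac1 (chr6:7555061-7562978), the precursor of substance P, had the strongest short-tail weighting of the 8 genes. Its level in the long-tail fraction was 7.25, 7.29 and 8.50 in TgCPEB4∆4 mice, against 6.32, 7.15 and 6.67 in CTRL mice. In the short-tail fraction it was 8.84, 9.33 and 9.20 in TgCPEB4∆4 mice, against 9.18, 9.32 and 9.36 in CTRL mice. Every mouse thus had less Tac1 in its long-tail than in its short-tail fraction. The tail ratio was -1.59, -2.04 and -0.70 in TgCPEB4∆4 mice, against -2.86, -2.17 and -2.69 in CTRL mice. TgCPEB4∆4 mouse 3 stood nearest to 0, and all TgCPEB4∆4 mice lay above all CTRL mice. The means were -1.44 ± 0.68 in TgCPEB4∆4 mice (adjusted p = 0.0066, limma) and -2.57 ± 0.36 in CTRL mice (adjusted p = 0.00045, limma), so that the short-tail signal was 2.72-fold the long-tail signal in TgCPEB4∆4 mice and 5.96-fold in CTRL mice. Of 11974 genes, 0.409% had a lower mean ratio in TgCPEB4∆4 mice and 0.651% in CTRL mice. In the long-tail fraction of CTRL mouse 1 neither Tac1 nor Drd2 (7.23) nor Pdyn (6.88) exceeded the brightest nonspecific control probe set (7.30). A second Tac1 probe set, 1431883_PM_at, failed the filter and exceeded the nonspecific controls on 2 of 18 arrays. Its ratio ran the other way, at 0.26, 0.47 and 0.41 in TgCPEB4∆4 mice and 0.20, 0.41 and 0.61 in CTRL mice, and it was not tested.

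Penk (chr4:4133536-4138815), the enkephalin precursor, had ratios below 0 in 6 of 6 mice. Its tail ratio was -0.32, -0.44 and -0.25 in TgCPEB4∆4 mice, against -1.18, -0.41 and -1.19 in CTRL mice. CTRL mice 1 and 3 lay well below all TgCPEB4∆4 mice, and CTRL mouse 2 lay among them. The mean was -0.34 ± 0.10 in TgCPEB4∆4 mice (adjusted p = 0.16, limma) and -0.93 ± 0.45 in CTRL mice (adjusted p = 0.0026, limma). Of 11974 genes, 35.2% in TgCPEB4∆4 and 20.6% in CTRL mice had a lower mean ratio than Penk. Pdyn (chr2:129686549-129699938), the dynorphin precursor, stood near 0. Its tail ratio was -0.29, -0.14 and 0.06 in TgCPEB4∆4 mice, against 0.25, 0.19 and -0.05 in CTRL mice. Neither mean passed (adjusted p = 0.48 in TgCPEB4∆4 and 0.40 in CTRL mice, limma), and the 95% intervals of the means were -0.42 to 0.18 in TgCPEB4∆4 mice and -0.17 to 0.43 in CTRL mice. The peptide genes of the direct pathway therefore lay apart: Tac1 minus Pdyn was -1.32 ± 0.57 in TgCPEB4∆4 mice and -2.70 ± 0.38 in CTRL mice (SD, n = 3 each), and below 0 in 6 of 6 mice.

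**Figure D2:**
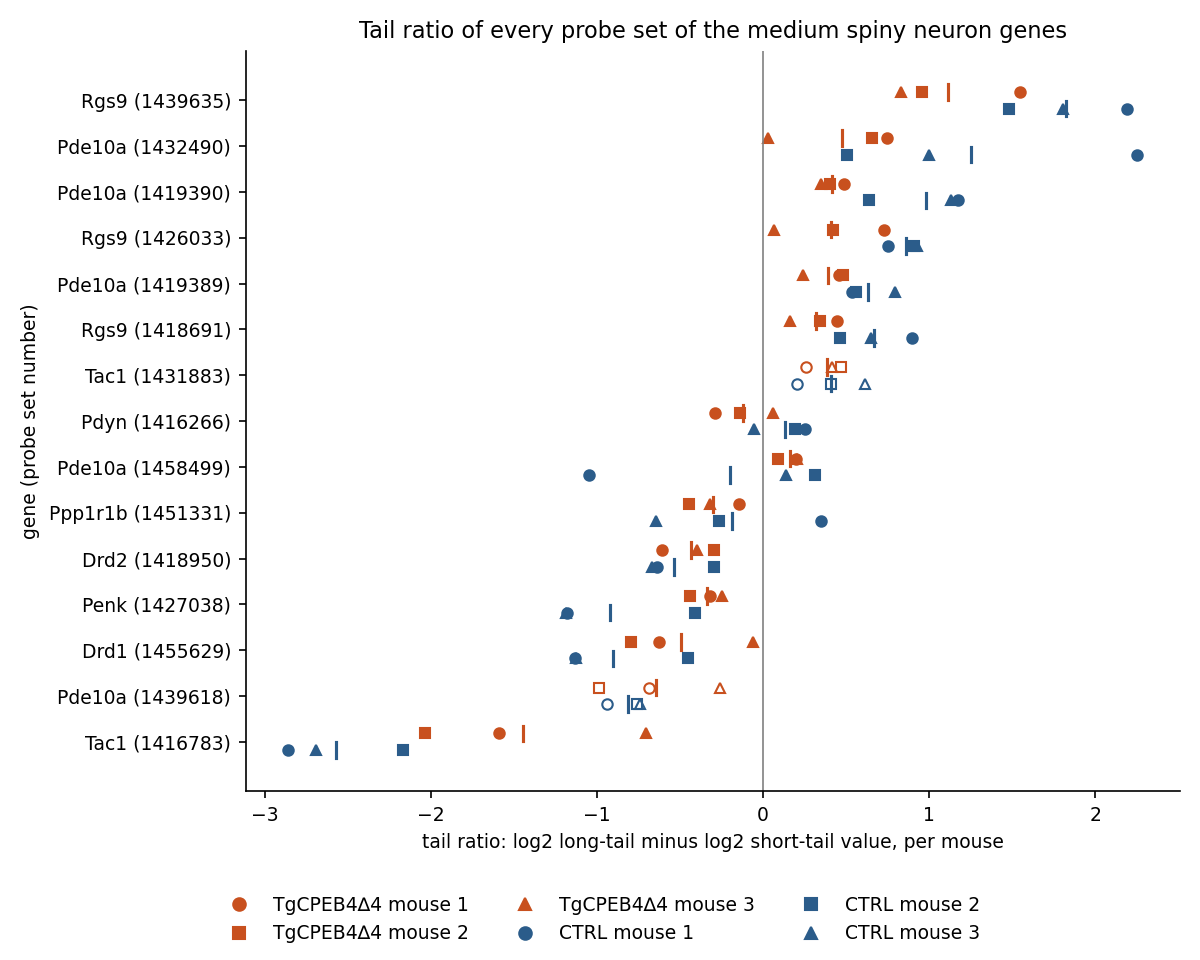
Tail ratio (log2 long-tail minus log2 short-tail value) of all 15 probe sets, 1 symbol per mouse, TgCPEB4∆4 in orange above CTRL in blue, with bars at the group means. Open symbols mark the probe sets 1431883_PM_at and 1439618_PM_at, which failed the filter; Rgs9 and all but 2 of the 5 Pde10a probe sets lie right of 0, and Drd1, Drd2, Penk and the brighter Tac1 probe set lie left of 0.

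Rgs9 (chr11:109225348-109298181) was the gene most weighted toward long tails, and all its probe sets ran the same way. Its long-tail level was 9.68, 9.49 and 9.56 in TgCPEB4∆4 mice, against 11.00, 10.17 and 10.49 in CTRL mice. Its short-tail level was 8.14, 8.54 and 8.73 in TgCPEB4∆4 mice, against 8.81, 8.68 and 8.68 in CTRL mice. The tail ratio was 1.55, 0.95 and 0.83 in TgCPEB4∆4 mice, against 2.19, 1.48 and 1.80 in CTRL mice. All 6 ratios were above 0, and those of TgCPEB4∆4 mouse 1 and CTRL mouse 2 overlapped. The mean of 1.11 ± 0.38 in TgCPEB4∆4 mice (adjusted p = 0.0064, limma) stood above 99.9% of 11974 genes, and that of 1.83 ± 0.36 in CTRL mice (adjusted p = 0.00048, limma) above nearly all of them. The probe set 1418691_PM_at gave 0.32 ± 0.14 in TgCPEB4∆4 mice and 0.67 ± 0.22 in CTRL mice, and 1426033_PM_at gave 0.41 ± 0.33 in TgCPEB4∆4 mice and 0.86 ± 0.10 in CTRL mice. Both passed in CTRL mice (adjusted p = 0.0037 and 0.0020, limma) and not in TgCPEB4∆4 mice (adjusted p = 0.10 and 0.069, limma). For 1426033_PM_at no total-RNA array exceeded the nonspecific controls.

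Pde10a (chr17:8525187-8986648) gave different answers by probe set. The brightest, 1458499_PM_at, had tail ratios of 0.20, 0.09 and 0.20 in TgCPEB4∆4 mice, against -1.05, 0.31 and 0.14 in CTRL mice. CTRL mouse 1 alone carried the negative CTRL mean (-0.20 ± 0.74), which was 0.22 without that mouse, and neither genotype passed (adjusted p = 0.61 in TgCPEB4∆4 and 0.48 in CTRL mice, limma). The next brightest, 1419389_PM_at, had 0.46, 0.48 and 0.24 in TgCPEB4∆4 mice, against 0.54, 0.56 and 0.79 in CTRL mice, and passed in both (adjusted p = 0.045 in TgCPEB4∆4 and 0.0036 in CTRL mice, limma). The probe set 1419390_PM_at had 0.49, 0.40 and 0.35 in TgCPEB4∆4 mice, against 1.17, 0.64 and 1.13 in CTRL mice, and passed in CTRL mice (adjusted p = 0.0011, limma) but not in TgCPEB4∆4 mice (adjusted p = 0.055, limma). The fourth, 1432490_PM_a_at, averaged 0.48 ± 0.39 in TgCPEB4∆4 mice and 1.25 ± 0.90 in CTRL mice, where it passed (adjusted p = 0.0077, limma) and came to 0.75 without CTRL mouse 1. The fifth, 1439618_PM_at, failed the filter and lay below 0 in all 6 mice. With all probe sets of the gene averaged, Pde10a passed toward long tails in CTRL mice (0.37, adjusted p = 0.014, limma, in a range of 0.014 to 0.98 over 14 alternatives).

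Ppp1r1b (chr11:98348406-98357796) showed no lean that passed. Its tail ratio was -0.14, -0.45 and -0.32 in TgCPEB4∆4 mice, against 0.35, -0.27 and -0.65 in CTRL mice. CTRL mouse 1 was the only mouse above 0. The means of -0.30 ± 0.15 in TgCPEB4∆4 mice and -0.19 ± 0.50 in CTRL mice did not pass (adjusted p = 0.23 in TgCPEB4∆4 and 0.39 in CTRL mice, limma), and the CTRL value passed once CTRL mouse 1 was left out (-0.46, adjusted p = 0.032, limma, in a range of 0.032 to 0.99 over 14 alternatives). By probe set, 2 of 13 passed toward long and 2 toward short tails in TgCPEB4∆4 mice, and 6 toward long and 4 toward short tails in CTRL mice. All TgCPEB4∆4 calls ended without TgCPEB4∆4 mouse 1 or without TgCPEB4∆4 mouse 2, where no probe set of the array passed. Tac1 then stood at -1.37 and Rgs9 at 0.89 without mouse 1, and at -1.15 and 1.19 without mouse 2, all with adjusted p from 0.067 to 0.075 (limma).

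Ordered by the mean ratio over the 6 mice, the genes ran from Tac1 through Drd1, Penk, Drd2, Ppp1r1b, Pde10a and Pdyn to Rgs9. The gaps at both ends exceeded the spread between mice: Drd1 minus Tac1 was 0.95 ± 0.30 in TgCPEB4∆4 mice and 1.67 ± 0.09 in CTRL mice, and Pdyn minus Rgs9 was -1.23 ± 0.55 in TgCPEB4∆4 mice and -1.69 ± 0.35 in CTRL mice, with the same sign in 6 of 6 mice. Among Drd1, Penk and Drd2 the order differed between mice. Drd1 minus Drd2 was -0.06 ± 0.42 in TgCPEB4∆4 mice and -0.37 ± 0.18 in CTRL mice, below 0 in 5 of 6 mice. Drd1 minus Penk was -0.16 ± 0.30 in TgCPEB4∆4 mice and 0.02 ± 0.06 in CTRL mice, above 0 in 3 of 6 mice. Drd2 minus Penk was -0.10 ± 0.22 in TgCPEB4∆4 mice and 0.39 ± 0.24 in CTRL mice, above 0 in 4 of 6 mice. Drd2 was thus the highest of these genes in all 3 CTRL mice and not in all TgCPEB4∆4 mice. The distance from the lowest to the highest gene was 3.14, 2.99 and 1.53 in TgCPEB4∆4 mice and 5.05, 3.65 and 4.50 in CTRL mice. All CTRL distances were larger. The SD of the tail ratio over all probe sets of the array was 0.614, 0.621 and 0.388 in TgCPEB4∆4 mice against 1.19, 0.593 and 0.859 in CTRL mice. CTRL mouse 2 had a smaller SD than TgCPEB4∆4 mice 1 and 2 but a larger distance. The part of this SD in the members' distances was not tested.

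The direct-pathway genes Drd1, Tac1 and Pdyn were then set against the indirect-pathway genes Drd2 and Penk. The mean tail ratio of the direct set minus that of the indirect set was -0.37, -0.62 and 0.09 in TgCPEB4∆4 mice, against -0.34, -0.46 and -0.36 in CTRL mice. The direct set thus lay lower in 5 of 6 mice, and the genotypes overlapped, with means of -0.30 ± 0.36 in TgCPEB4∆4 mice and -0.39 ± 0.06 in CTRL mice (SD, n = 3 each). These values describe chosen genes and carry no test. The difference rested on Tac1: without it the means were 0.08 in TgCPEB4∆4 mice and 0.34 in CTRL mice. With all probe sets of a gene averaged they were 0.0022 in TgCPEB4∆4 mice and 0.11 in CTRL mice. The contrast within the direct set, Tac1 against Pdyn, was larger than that between the sets in every mouse.

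**Figure D3:**
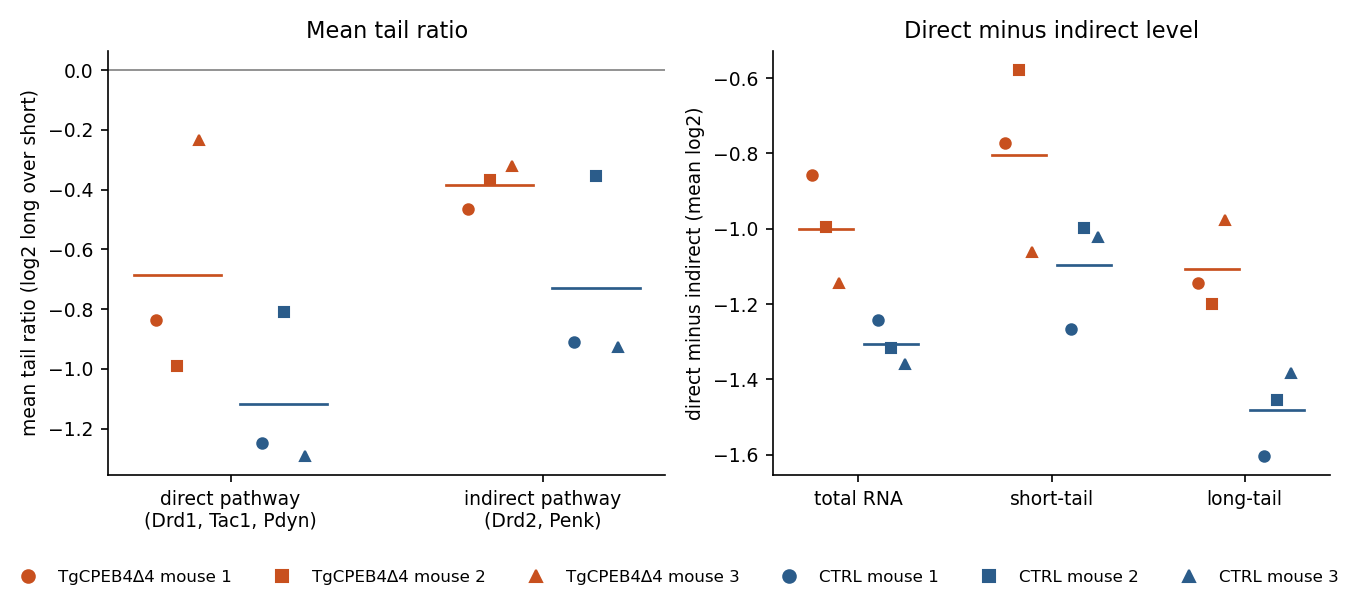
Left, mean tail ratio of the direct-pathway genes (Drd1, Tac1, Pdyn) and the indirect-pathway genes (Drd2, Penk) per mouse, TgCPEB4∆4 in orange left of CTRL in blue, with lines at the group means. Right, mean log2 level of the direct genes minus that of the indirect genes in each preparation; in total RNA and the long-tail fraction the 3 TgCPEB4∆4 mice lie above the 3 CTRL mice.

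Between genotypes, the mean log2 level of the direct genes minus that of the indirect genes stood higher in TgCPEB4∆4 mice in every preparation. In total RNA it was -0.86, -1.0 and -1.15 in TgCPEB4∆4 mice, against -1.24, -1.32 and -1.36 in CTRL mice. The genotypes did not overlap, and the means differed by 0.31, of which the indirect genes gave -0.34 and the direct genes -0.04. In the long-tail fraction the means differed by 0.37 without overlap, of which the direct genes gave 0.39 and the indirect genes 0.01. Among the direct genes Tac1 differed by 0.97 there, Drd1 by 0.37 and Pdyn by -0.18. In the short-tail fraction the means differed by 0.29 with overlap, the indirect genes by -0.33 and the direct genes by -0.04. Of all single probe sets, 18.4% in total RNA and 24.5% in the long-tail fraction did not overlap in either direction. Because levels of different probe sets are not comparable, only the differences between genotypes can be read from these values. The total-RNA difference was 0.16 without Drd2, whose total-RNA level lay near background, and 0.45 without Penk.

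No member passed the test between genotypes in total RNA, nor did any probe set of the array (0% of 27022, with 2935 at an unadjusted p under 0.05, limma; 3 of the 8 genes were under that value). The largest difference was that of Rgs9, at 8.90, 9.05 and 9.27 in TgCPEB4∆4 mice against 9.63, 9.65 and 9.60 in CTRL mice. All TgCPEB4∆4 mice lay below all CTRL mice, by a mean of -0.55 ± 0.12 (SE; adjusted p = 0.42, limma). Its other probe sets differed less. For 1418691_PM_at the difference was -0.30 ± 0.12 without overlap (SE; adjusted p = 0.43, limma). For 1426033_PM_at it was -0.10 ± 0.10 with overlap (SE; adjusted p = 0.69, limma). Pde10a was at 10.80, 10.96 and 10.93 in TgCPEB4∆4 mice against 11.30, 11.20 and 11.28 in CTRL mice. Its genotypes did not overlap (-0.36 ± 0.10, SE; adjusted p = 0.42, limma), and each of the 4 Pde10a probe sets tested showed the same separation. Penk was at 10.87, 10.78 and 10.96 in TgCPEB4∆4 mice against 10.98, 11.12 and 11.10 in CTRL mice, the third gene without overlap (-0.20 ± 0.10, SE; adjusted p = 0.50, limma). TgCPEB4∆4 mice lay below CTRL mice without overlap for 3 of 8 genes and 7 of 13 probe sets, against 7.3% of all probe sets, and above them for 0 of 8, against 11.1%. The difference lay below 0 for 5 of 8 genes and above 0 for 3, Ppp1r1b (0.10), Tac1 (0.04) and Pdyn (0.03). Cortex and striatum were taken as 1 piece. The number of medium spiny neurons, their RNA per cell and the share of striatum in the piece therefore cannot be told apart.

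The receptors and the direct-pathway peptides overlapped between genotypes in total RNA. Drd2 was at 6.61, 6.70 and 7.05 in TgCPEB4∆4 mice against 6.99, 7.51 and 7.34 in CTRL mice (-0.49 ± 0.17, SE; adjusted p = 0.42, limma), mostly within the background range. Drd1 was at 8.59, 8.22 and 8.35 in TgCPEB4∆4 mice against 8.37, 8.69 and 8.65 in CTRL mice, with TgCPEB4∆4 mouse 1 among the CTRL values (-0.18 ± 0.14, SE; adjusted p = 0.61, limma). Tac1 was at 8.28, 8.47 and 8.42 in TgCPEB4∆4 mice against 8.38, 8.47 and 8.20 in CTRL mice, and the 95% interval of its difference was -0.22 to 0.30. Those of Pdyn and Ppp1r1b were -0.27 to 0.33 and -0.17 to 0.36. The sign of the Tac1 difference (0.04) turned with another scaling of the arrays, as did that of Pdyn (0.03).

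**Figure D4:**
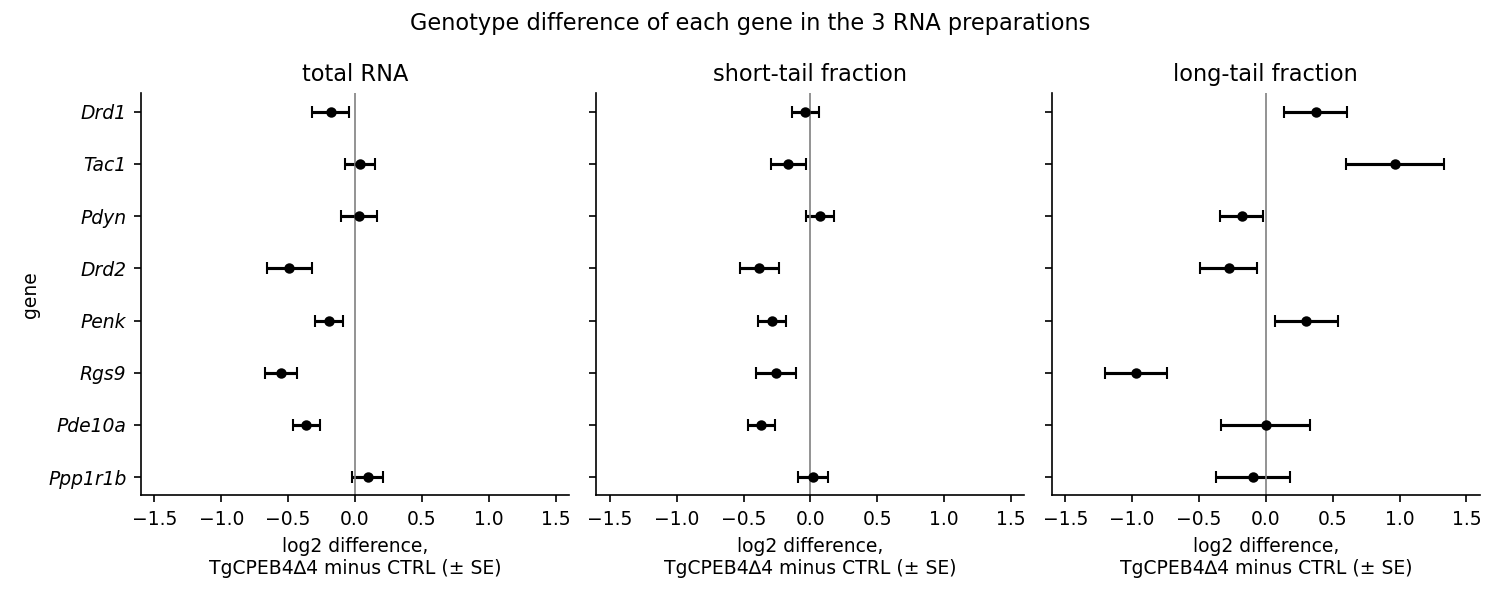
Log2 difference, TgCPEB4∆4 minus CTRL, of each gene in each of the 3 preparations, points with bars of ± SE from limma (n = 3 mice per genotype). Rgs9 lies furthest left in total RNA (-0.55) and in the long-tail fraction (-0.97), where Tac1 lies furthest right (0.97); none passed the test.

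In the short-tail fraction no probe set of the array passed between genotypes (0%, with 4466 at an unadjusted p under 0.05, limma). Pde10a (-0.37 ± 0.10, SE; adjusted p = 0.19, limma) and Penk (-0.29 ± 0.11, SE; adjusted p = 0.25, limma) were the 2 of 8 genes for which all TgCPEB4∆4 mice lay below all CTRL mice, against 10.5% of all probe sets. In the long-tail fraction again none passed (0%, with 4454 at an unadjusted p under 0.05, limma). The largest differences had opposite signs: Rgs9 stood lower in all TgCPEB4∆4 mice (-0.97 ± 0.23, SE; adjusted p = 0.28, limma) and Tac1 stood higher in all of them (0.97 ± 0.37, SE; adjusted p = 0.29, limma). Pdyn also lay lower without overlap (-0.18 ± 0.16, SE; adjusted p = 0.51, limma), with CTRL mouse 1 at background. The TgCPEB4∆4 mice thus lay below the CTRL mice for 2 of 8 genes and above them for 1 of 8, against 10.3% and 14.1% of all probe sets. By probe set they lay below for 6 of 13 and above for 1 of 13. Besides those named, Rgs9 1418691_PM_at (-0.54 ± 0.20) and 1426033_PM_at (-0.72 ± 0.18) lay lower without overlap. So did Pde10a 1419389_PM_at (-0.50 ± 0.16) and 1419390_PM_at (-0.80 ± 0.21), with adjusted p from 0.28 to 0.29 for these probe sets (SE, limma). The brightest Pde10a probe set overlapped (-0.0021 ± 0.33, SE). The differences of Tac1 and of the brightest Rgs9 probe set depended on how the arrays were fitted. With all 18 arrays in 1 model and the mouse as a random effect, Tac1 passed (adjusted p = 0.025, limma), as did Rgs9 (adjusted p = 0.0059, limma). Rgs9 also passed without CTRL mouse 2 (-1.16, adjusted p = 0.024, limma). Pde10a 1419389_PM_at (adjusted p = 0.0089, limma) and 1419390_PM_at (adjusted p = 0.0059, limma) passed in the fit of 18 arrays, as did the other Rgs9 probe sets. Without CTRL mouse 2, 1419390_PM_at passed too (-0.997, adjusted p = 0.023, limma). Of all probe sets, 17.3% passed in the fit of 18 arrays and 8.58% without CTRL mouse 2. Over the 14 alternatives adjusted p reached 0.63 for Tac1 and for the brightest Rgs9 probe set.

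The tail ratio itself was compared between genotypes last, which asks whether the weighting of a transcript between fractions differed with the transgene. No probe set of the array passed (0%, with 3621 at an unadjusted p under 0.05, limma). In CTRL mice the genes farthest from 0 lay farther out than in TgCPEB4∆4 mice. The difference was 1.13 ± 0.35 for Tac1, 0.59 ± 0.24 for Penk and -0.71 ± 0.26 for Rgs9 (SE; adjusted p = 0.37 for each, limma), 0.41 ± 0.27 for Drd1 (SE; adjusted p = 0.48, limma) and 0.10 ± 0.19 for Drd2 (SE; adjusted p = 0.80, limma). By the brightest probe set of each gene, only Tac1 did not overlap between genotypes. TgCPEB4∆4 mice lay above CTRL mice for 1 of 8 genes (9.66% of all probe sets) and below them for 0 of 8 (8.57%). By probe set they lay above for 1 of 13 and below for 4 of 13. Those below were Rgs9 1418691_PM_at (-0.35 ± 0.19) and 1426033_PM_at (-0.46 ± 0.21), and Pde10a 1419389_PM_at (-0.24 ± 0.18) and 1419390_PM_at (-0.57 ± 0.20, SE; adjusted p from 0.37 to 0.53, limma). The brightest Pde10a probe set overlapped, at 0.36 ± 0.34 (SE; adjusted p = 0.61, limma). With each mouse's ratios rescaled to the same spread over the array, the Tac1 difference was 0.36 and that of Rgs9 -0.06. Without CTRL mouse 2, whose ratios had the smallest spread of the CTRL mice, Penk passed (0.85, adjusted p = 0.034, limma, in a range of 0.034 to 0.79 over 15 alternatives). So did Pde10a 1419390_PM_at (-0.74, adjusted p = 0.048, limma, in a range of 0.048 to 0.79 over 14 alternatives), and 9.2% of all probe sets passed.

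Markers of other cell types were read in the same total RNA. The mean level of 6 astrocyte markers was 11.05, 10.57 and 10.12 in TgCPEB4∆4 mice against 10.07, 10.03 and 10.01 in CTRL mice, and all TgCPEB4∆4 mice lay higher, mouse 1 the most. The log2 of their summed level was 14.348, 14.073 and 13.615 in TgCPEB4∆4 mice against 13.621, 13.625 and 13.608 in CTRL mice. By this measure the genotypes overlapped, with TgCPEB4∆4 mouse 3 among the CTRL values. Of these 6 markers 5 had a difference above 0, beside 57.1% of all genes, and 0 passed, with 3 at an unadjusted p under 0.05 (limma). The mean of 6 microglial markers differed by 0.37 (4 of 6 above 0) and that of 3 meningeal markers by 0.47 (3 of 3 above 0). The log2 summed levels of microglia ran from 11.29 to 12.22 in TgCPEB4∆4 mice and 11.24 to 11.35 in CTRL mice. Those of meninges ran from 10.06 to 10.41 in TgCPEB4∆4 mice and 9.68 to 9.88 in CTRL mice. The mean of 6 striatal interneuron markers differed by 0.03 (3 of 6 above 0) and that of 5 oligodendrocyte markers by -0.09 (1 of 5 above 0). That of 4 endothelial markers differed by 0.21 (4 of 4 above 0), and that of 3 thalamic markers by 0.09 (2 of 3 above 0). Of 3 choroid plexus markers only Ttr passed the filter. It stood at 12.05, 8.81 and 11.38 in TgCPEB4∆4 mice against 9.28, 10.66 and 9.61 in CTRL mice, a difference of 0.90 with overlap. The mean of 7 cortical excitatory neuron markers differed by -0.03, and that of the 8 members by -0.20. The mean of the members was 8.94, 8.89 and 9.04 in TgCPEB4∆4 mice 1 to 3, lowest in mouse 2. That of the other medium spiny neuron genes was 9.66, 9.74 and 9.86, lowest in mouse 1, where astrocyte markers were highest. The part of these cell types in the members' differences was not tested.

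**Figure D5:**
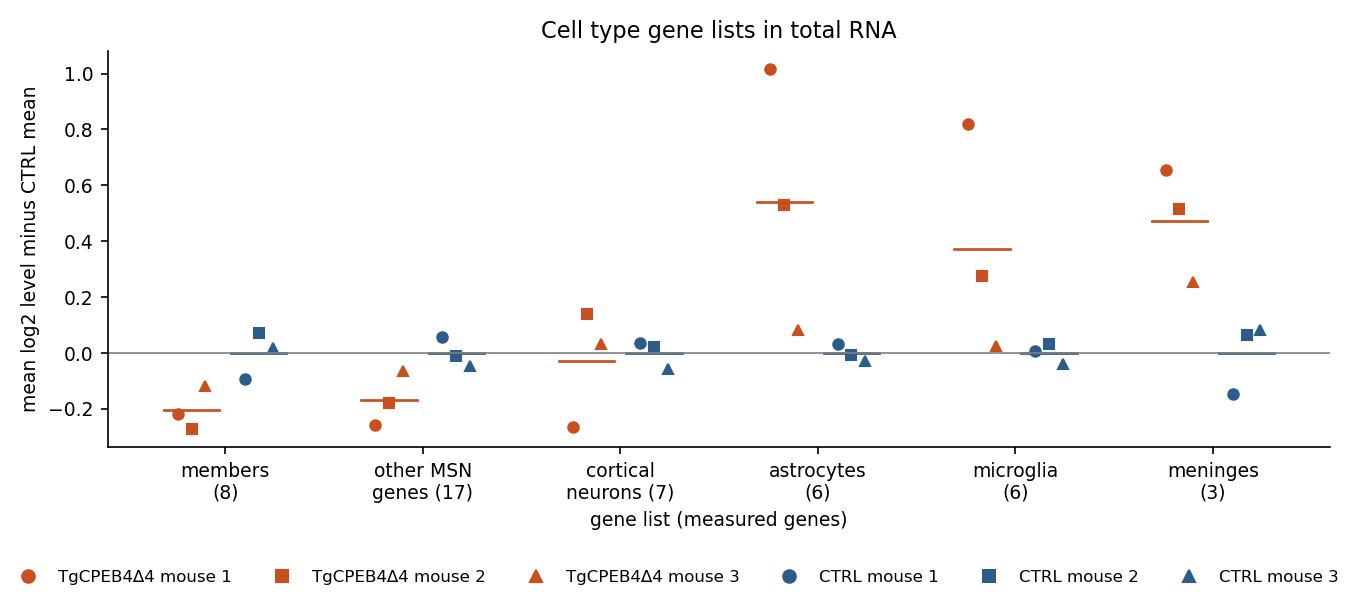
Mean log2 level of each plotted gene list in total RNA of each mouse minus the CTRL mean of that list. TgCPEB4∆4 is in orange left of CTRL in blue, with lines at the group means and the number of measured genes in brackets. Members (-0.20) and other medium spiny neuron (MSN) genes (-0.17) lie below 0 in TgCPEB4∆4 mice, and astrocyte (0.54), microglial (0.37) and meningeal (0.47) markers above 0.

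Other medium spiny neuron genes, listed by where they are known to be expressed, also lay mostly below 0 in total RNA. Of 17 measured genes 13 had a difference below 0 and 0 passed, with 5 at an unadjusted p under 0.05 (limma). Over all genes tested 57.1% had a difference above 0, and 2935 of 27022 probe sets had an unadjusted p under 0.05 (limma). The median was -0.14, beside 0.03 over all genes tested. The smallest p values were those of the sodium channel subunit Scn4b (-0.63 ± 0.15, SE), the phosphatase Ptpn5 (-0.46 ± 0.17), the small G protein Rasd2 (-0.37 ± 0.14) and Syndig1l (-0.41 ± 0.16), with adjusted p from 0.42 to 0.44 (limma). Scn4b exceeded the nonspecific controls on 1 of 3 TgCPEB4∆4 and 3 of 3 CTRL arrays. In the tail ratio of CTRL mice 5 of the 17 passed toward long and 2 toward short tails, and in TgCPEB4∆4 mice 0 passed toward long and 1 (Foxp2) toward short tails. Of all probe sets, 27.6% passed toward long and 35.4% toward short tails in CTRL mice, and 12.7% and 19.1% in TgCPEB4∆4 mice. Among them the transcription factor Foxp1 (0.61 ± 0.15, SE), Ptpn5 (0.64 ± 0.18) and Syndig1l (0.70 ± 0.21) leaned to long tails in CTRL mice, and Scn4b (-0.70 ± 0.21) to short tails (adjusted p from 0.0091 to 0.019, limma). Without CTRL mouse 1 Syndig1l came to 0.37 and Scn4b to -0.40, and neither passed (adjusted p = 0.069 for each, limma). Foxp1 and Ptpn5 did not pass without CTRL mouse 3 (adjusted p = 0.056 and 0.060, limma). Their median ratio was 0.03 in CTRL mice, beside -0.18 over all genes, and that of the members was -0.37.

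Of the genes that act with DARPP-32, 27 were measured, and in CTRL mice 14 passed toward short and 5 toward long tails, against 35.4% and 27.6% of all probe sets. The smallest p values were those of the protein kinase A subunit Prkar2b (-1.47 ± 0.21, SE), the kinase Cdk5 (-1.02 ± 0.16), the phosphodiesterase Pde4b (-0.81 ± 0.15) and Ppp1cc (-1.11 ± 0.20), a catalytic subunit of the phosphatase that DARPP-32 inhibits (adjusted p from 0.0010 to 0.0025, limma). In TgCPEB4∆4 mice 0 of the 27 passed, with 4 at an unadjusted p under 0.05 (limma), against 31.8% of all probe sets. The tail ratios of Prkar2b, Cdk5, Pde4b and Ppp1cc averaged -0.64, -0.47, -0.38 and -0.42 in these mice. The list's median was -0.23 in TgCPEB4∆4 mice and -0.38 in CTRL mice, beside -0.17 in TgCPEB4∆4 and -0.18 in CTRL mice over all genes. Between genotypes 0 of 27 passed in total RNA, with 5 at an unadjusted p under 0.05, and 0 in the tail ratio, with 6 (limma). The tail ratio stood nearer to long tails in TgCPEB4∆4 mice for 20 of the 27, beside 52.6% of all genes. The median difference was 0.23 beside 0.02 over all genes. Among its measured genes 5 also stand on the preceding list, Gnal, Adcy5, Pde1b, Arpp21 and Ptpn5.

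Of 4 measured receptors for striatal peptides, 3 leaned to long tails in CTRL mice, in which Tac1 and Penk leaned to short tails. The µ opioid receptor Oprm1 had a tail ratio of 0.30, 0.09 and 0.06 in TgCPEB4∆4 mice against 1.10, 0.59 and 1.15 in CTRL mice, and passed in CTRL mice (adjusted p = 0.0013, limma). The δ opioid receptor Oprd1 had 1.09, 0.45 and 0.24 in TgCPEB4∆4 mice against 0.67, 0.72 and 0.76 in CTRL mice, and passed in both (adjusted p = 0.032 in TgCPEB4∆4 and 0.0074 in CTRL mice, limma). The substance P receptor Tacr1 passed in CTRL mice (0.52 ± 0.13, SE; adjusted p = 0.0090, limma) but not without CTRL mouse 3 (adjusted p = 0.066, limma). The κ opioid receptor Oprk1, on which dynorphin acts, had -0.44, -0.40 and -0.46 in TgCPEB4∆4 mice against 0.05, 0.03 and -0.03 in CTRL mice, and passed toward short tails in TgCPEB4∆4 mice (adjusted p = 0.024, limma). For Oprk1 all TgCPEB4∆4 mice lay below all CTRL mice, as for 8.57% of all probe sets, and no probe set passed between genotypes. The processing enzyme Cpe passed toward short tails in CTRL mice (-1.15 ± 0.39, SE; adjusted p = 0.030, limma), with CTRL mouse 1 far below the others at -2.62. Without that mouse it came to -0.42 (adjusted p = 0.052, limma), and its call also ended without CTRL mouse 3 or without TgCPEB4∆4 mouse 1 or 2. Over the list of peptide partners, 3 of 6 measured genes passed toward long and 1 toward short tails in CTRL mice, and 1 each way in TgCPEB4∆4 mice, against 63% of all probe sets in CTRL and 31.8% in TgCPEB4∆4 mice.

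Fewer genes could be read on the lists specific to either pathway. Of other direct-pathway genes 3 were measured (Isl1, Chrm4 and Eya1), and 0 passed in the tests of total RNA and of tail ratios, with 1 (Eya1, in total RNA) at an unadjusted p under 0.05 (limma). The tail ratio of Chrm4 in CTRL mice (0.30) passed after median centring (0.49, adjusted p = 0.044, limma) and without CTRL mouse 2 (0.50, adjusted p = 0.039, limma). Of other indirect-pathway genes only the transcription factor Six3 was measured, with a tail ratio of 0.17, 0.44 and 0.49 in TgCPEB4∆4 mice against 1.08, 0.44 and 0.66 in CTRL mice, which passed in CTRL mice (adjusted p = 0.0045, limma). Its lean to long tails was opposite to that of Drd2 and Penk. In total RNA Six3 exceeded the nonspecific controls on 0 of 3 TgCPEB4∆4 and 1 of 3 CTRL arrays, and Isl1 on none. In each tail fraction Six3 exceeded them on all 6 arrays. Among other dopamine and adenosine receptors 2 were measured and 1, Drd3, passed in CTRL mice toward long tails (0.46 ± 0.14, SE; adjusted p = 0.022, limma). Neither of these 2 receptors exceeded the nonspecific controls on all 6 total-RNA arrays.

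Across the 18 arrays the genes whose levels ran most like the mean standardised profile of the members were Coch (Pearson r = 0.83), Thoc5 (0.82), Kcnab1 (0.82), Fbxo33 (0.81) and Mrps35 (0.81). The members themselves correlated with that profile between -0.49 (Rgs9) and 0.86 (Penk), so Rgs9 ran opposite to it. Over the 6 tail ratios the most alike were Snrpa (0.99), Cpox (0.97), Egln3 (0.97), Lta4h (0.97) and Usp39 (0.97). The arrays share mice and preparations, and these correlations are descriptions without a test.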

How the data were processed

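Per the submitters' processing notes, the deposited log2 values per probe set were made by the authors with RMA, which subtracts background, makes array distributions alike and summarises probes. Neither its version nor the number of runs is named in these sources. Per the labels' protocols, 5 ng of RNA was amplified over 21 cycles, so values give a transcript's share of a preparation, not an amount. The design text names another array (Mouse PrimeView) than the probe set names do, and the probe set names were followed. Arrays carry no read depth, and the 3 mice per genotype limit precision.

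After leaving out 104 control probe sets, 27022 of 45037 exceeded the 40th percentile of the mean (log2 5.95) and were tested. Two-sided tests came from limma 3.58.1 (R 4.3.3, with statmod 1.5.0), and p-values were adjusted by Benjamini-Hochberg over those 27022, with 0.05 as the threshold. Each preparation was compared between genotypes on its 6 arrays. Tail ratios were fitted over 6 mice sharing 1 spread, which is lenient where 1 genotype varied more. The script was tested on simulated data. Gene positions are from RefSeq (GRCm38.p6).

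Groups and mice follow the titles, whose numbers tie the 3 preparations of a mouse. After subtracting group means, its short-tail and long-tail values correlated at 0.72, 0.33 and 0.43 in TgCPEB4∆4 mice and at -0.07, 0.16 and -0.02 in CTRL mice. Nothing states whether mice share a litter or batch. Every member probe set is named, and from each list at most 4 genes by the smallest p. Members and lists were chosen with earlier results of these data known. Alternatives were other filters, scalings, summaries, variance models and omission of each mouse.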

Additional observations from a re-analysis of the deposited data

How the results depend on the processing

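The tail ratios of Tac1 and Rgs9 passed in CTRL mice in 14 of 14 alternative settings, and in TgCPEB4∆4 mice in 12 of 14, the exceptions being the omission of TgCPEB4∆4 mouse 1 or 2. Drd1 and Penk passed in CTRL mice in 14 of 14. Of the 8 genes, 0 to 4 passed in TgCPEB4∆4 mice with single mice left out, and 6 with ratios rescaled to 1 SD. Between genotypes 0 to 1 passed in the long-tail fraction and 0 to 1 in the tail ratio without single mice, and 2 in the long-tail fraction with all 18 arrays and the mouse as a random effect. Mouse numbers did not pair the genotypes (same-number correlations from -0.31 to 0.36), and with the replicate block 0 members passed in total RNA, either fraction or the tail ratio, as without it. Another quantile normalization moved the median tail ratio of all genes by 0.15 in TgCPEB4∆4 and 0.18 in CTRL mice, and median centring by 0.18 and 0.19. The share of calls toward long tails, 40% in TgCPEB4∆4 and 43.8% in CTRL mice, was 55.5% and 53.2% after quantile normalization and 66.5% and 57.3% after centring. Probe sets of the whole array that passed in TgCPEB4∆4 mice numbered 8601, against 4612 at the 60th percentile filter, 4986 after quantile normalization, 3271 genes with probe sets averaged, 16523 after rescaling, 13560 without CTRL mouse 1 and 0 without TgCPEB4∆4 mouse 1 or 2. In CTRL mice they numbered 17034, against 6880 genes with probe sets averaged. Between genotypes 0 passed, against 2319 in the long-tail fraction and 2487 in the tail ratio without CTRL mouse 2, 359 in the short-tail fraction without TgCPEB4∆4 mouse 3, and 4677 in the long-tail fraction with all 18 arrays. Signs turned after quantile normalization for Tac1 in total RNA (-0.033) and, in CTRL tail ratios, Ppp1r1b (0.14) and Pde10a (0.078). After centring they turned for Pdyn (-0.022) and Tac1 (-0.015) in total RNA, Pdyn (-0.0015) and Ppp1r1b (-0.055) in the short-tail fraction, Pdyn in the TgCPEB4∆4 tail ratio (0.055), and Ppp1r1b (0.0023) and Isl1 (0.042) in the CTRL tail ratio. With probe sets averaged they turned for Tac1 (-0.084) and Six3 (0.10) in total RNA and Pde10a in the CTRL tail ratio (0.37) and its genotype difference (-0.21), and after rescaling for the Drd2 difference (-0.16). Without single mice the total-RNA differences ran from -0.073 to 0.11 for Pdyn, -0.036 to 0.10 for Tac1, -0.20 to 0.051 for Isl1, -0.050 to 0.28 for Oprk1 and -0.12 to 0.13 for Six3. Short-tail differences ran from -0.10 to 0.043 for Drd1, -0.060 to 0.12 for Ppp1r1b and -0.18 to 0.0084 for the Pde10a probe set 1432490_PM_a_at. For Ppp1r1b the long-tail difference ran from -0.27 to 0.16, the CTRL tail ratio from -0.46 to 0.039 and its genotype difference from -0.34 to 0.15. For Pde10a (1458499_PM_at) these ran from -0.42 to 0.24, -0.46 to 0.22 and -0.060 to 0.62. Direct minus indirect was -0.47 in CTRL mice after quantile normalization, and 0.0022 in TgCPEB4∆4 and 0.11 in CTRL mice with probe sets averaged. Leaving out a member gave, in CTRL mice, -0.49 (Drd1), -1.01 (Pdyn), -0.19 (Drd2), -0.58 (Penk) and 0.34 (Tac1, with 0.076 in TgCPEB4∆4 mice), and for the genotype difference in total RNA 0.16 (Drd2) and 0.45 (Penk). Pdyn was not tested at the 60th percentile filter. The causes were not tested.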
